A study of Homo sapiens with 16 samples.

Results

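This account follows 10 genes of the Notch pathway, namely the receptors NOTCH1, NOTCH2 and NOTCH3, the ligands JAG1, JAG2 and DLL1, and the target genes HES1, HES4, HEY1 and NRARP. They were chosen by name from 60658 genes per table, with earlier results of these data known, and each symbol stood on 1 row. RNA was sequenced from the human breast cancer line MDA-MB-231, which lacks the hormone receptors and HER2 amplification, either wild type (WT) or with both copies of the clock transcription factor BMAL1 knocked out (BMAL1 -/-, here KO). Cells of each genotype were labelled control, with no word on a vehicle, or received 1 of 3 drugs: the DNA crosslinker cisplatin, the topoisomerase poison doxorubicin, or tunicamycin, an inhibitor of N-glycosylation that causes endoplasmic reticulum stress and that the design text presents as a negative control for the effect of BMAL1 loss. Each of the 8 groups had 2 samples, called biological replicates in the labels, and all groups shared the cell line. No dose, time or number of knockout clones is stated, so the loss of BMAL1 and a difference between clones or cultures cannot be told apart.

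Notch receptors are single-pass proteins that are cut when a Jagged or Delta-like ligand on a neighbouring cell binds them. The freed intracellular part enters the nucleus, joins the DNA-binding protein RBPJ and its coactivators, and switches on target genes. Many of those targets encode repressors of the HES and HEY families. In breast tissue the pathway is known for a role in luminal cell fate, and Jagged ligands are studied in triple-negative tumours.

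For each treatment the authors deposited 1 table that holds, for each group, 1 FPKM value (fragments counted relative to transcript length and library size) and their own test of KO against WT for each gene. A call below means that this test gave a q, a p-value adjusted over all tested genes of the table, of at most 0.05. No value per library was given, so no standard deviation is printed, and levels are written from WT to KO. Counts per library are not given either, so the depth behind a value is unknown. The p-values cannot go below 5e-05, and the smallest q of a table, such as 0.000213 in control, was shared by 3044 of the 12978 genes tested there. ARNTL, the gene of BMAL1, went from 5.67 to 0.889 FPKM in control and from 1.31 to 0.474 under doxorubicin, both called lower in the authors' deposited tables, while 1.26 to 0.941 under cisplatin and 3.25 to 2.24 under tunicamycin did not pass (q = 0.467 and 0.0810). Of 6 genes expected in a mesenchymal triple-negative breast line, VIM, CD44, CAV1 and AXL were at 149 FPKM or more in every group. EGFR ranged from 3.74 to 78.9, and SPARC was at most 2.07 in WT and at least 8.28 in KO groups. Of 9 luminal or epithelial markers 4 (ESR1, PGR, CDH1 and FOXA1) were below 1 FPKM in every group, whereas KRT18 ranged from 85.0 to 775 and ERBB2 from 7.11 to 25.5. EPCAM, GATA3 and CLDN3 reached 6.33, 5.48 and 4.79, and the sum of the 9 was 104 to 652 in WT and 111 to 802 in KO groups. The extraction protocol in the labels speaks of fibroblasts. Of 8 fibroblast markers 6, DCN, LUM and PDGFRA among them, were below 1 FPKM in every group, and their sum ranged from 1.05 to 9.07 in WT and from 3.92 to 15.6 in KO groups through COL1A1 and PDGFRB. Of 4 endothelial markers CDH5, VWF and TEK were below 1 in every group, and the sum was 0.213 to 0.337 in WT and 1.34 to 10.5 in KO groups through PECAM1. The part of these markers in the results below was not tested.

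Of the receptors, NOTCH1 (chromosome 9, 136494433 to 136545786, GRCh38, minus strand, whole gene) fell in KO cells in all 4 tables. Its level went from 4.62 to 2.82 FPKM in control, 8.60 to 3.23 under cisplatin, 2.46 to 1.11 under doxorubicin and 5.91 to 2.59 under tunicamycin. Every KO value lay below the WT value of its table, and the lowest pair was that under doxorubicin. The log2 ratio of KO over WT in the authors' deposited tables was -0.71 in control (q = 0.000213), -1.41 under cisplatin (q = 0.000167), -1.15 under doxorubicin (q = 0.000186) and -1.19 under tunicamycin (q = 0.000173). In these bulk samples fewer cells with a transcript and less of it per cell cannot be told apart.

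NOTCH2 (chromosome 1, 119911553 to 120069626, minus strand), the most abundant receptor here, behaved otherwise. It went from 11.4 to 20.9 FPKM in control, 12.4 to 11.5 under cisplatin, 4.59 to 4.89 under doxorubicin and 15.4 to 18.8 under tunicamycin. The authors' deposited tables called it higher in control (log2 ratio 0.87, q = 0.000213) and tunicamycin (0.29, q = 0.000173) and lower under cisplatin (-0.11, q = 0.0205). It was not called under doxorubicin (0.090, q = 0.441). The cisplatin difference is small and did not pass a q of 0.01. NOTCH2NL, a partial copy of NOTCH2 with nearly the same sequence, stood at 5.57 to 4.10 in control, 5.18 to 2.95 under cisplatin, 2.61 to 1.72 under doxorubicin and 5.28 to 5.50 under tunicamycin, and how fragments were divided between both genes is uncertain. NOTCH3 lay between 0.115 and 0.532 FPKM over the 8 groups and was tested in 0 of the 4 tables.

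**Figure D1:**
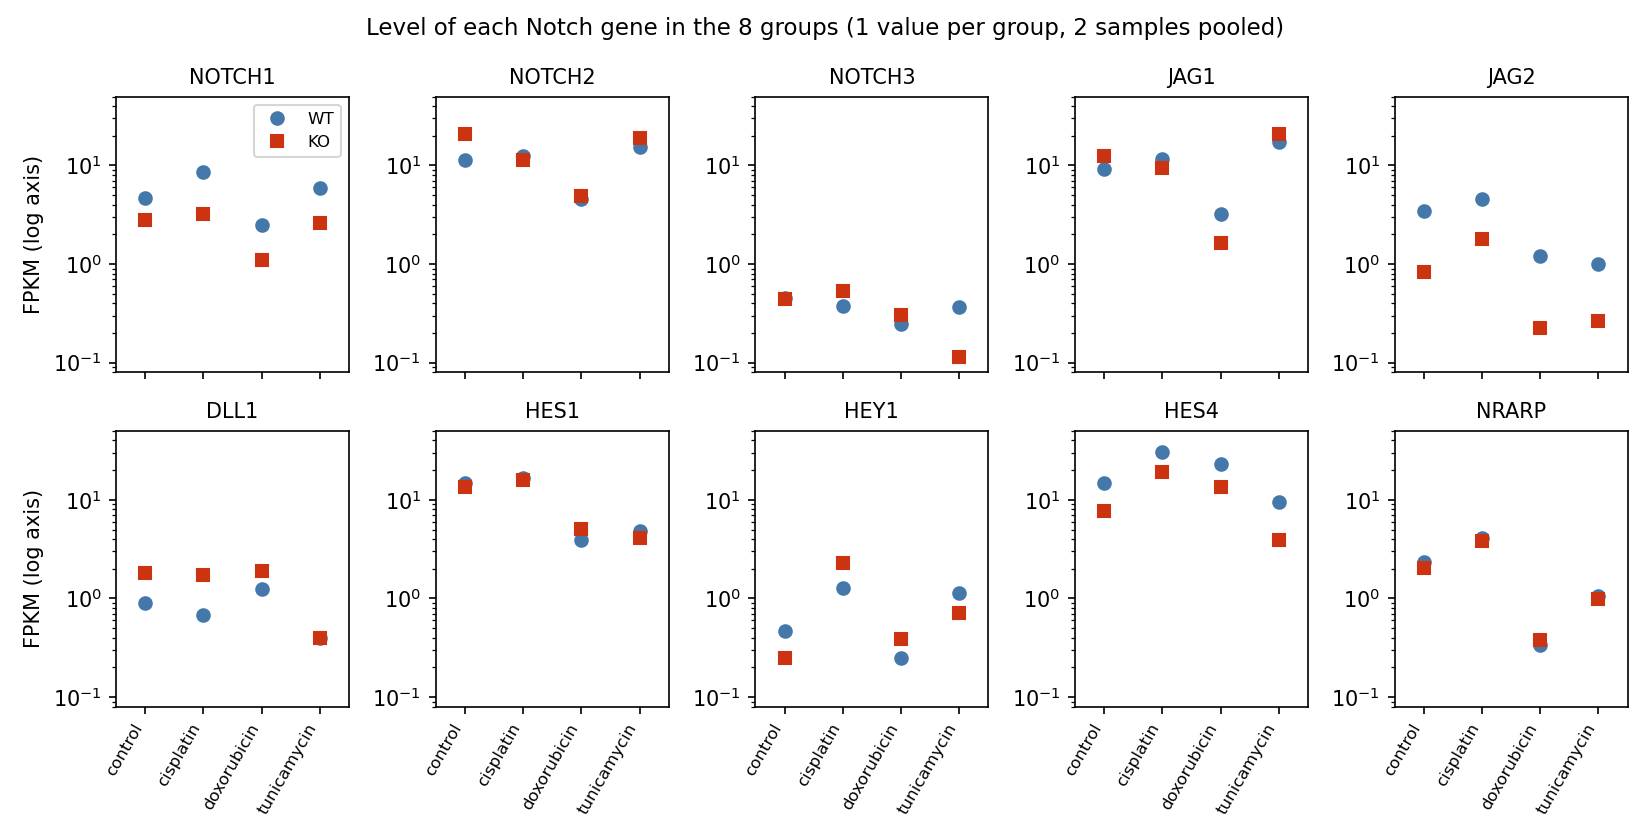
FPKM on a log axis for each of the 10 genes under the 4 treatments, with blue circles for WT and red squares for KO, each point being 1 group value of 2 samples. KO lies below WT in all 4 treatments for NOTCH1, JAG2 and HES4, whereas the points of HES1 and NRARP lie closer together, the widest gap of HES1 being 3.95 to 5.11 under doxorubicin.

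Of the ligands, JAG2 (chromosome 14, 105140981 to 105168824, minus strand) had the largest difference of the tested members in control, doxorubicin and tunicamycin; under cisplatin NOTCH1 and DLL1 exceeded it. It went from 3.44 to 0.833 FPKM in control, 4.52 to 1.79 under cisplatin, 1.21 to 0.225 under doxorubicin and 1.003 to 0.264 under tunicamycin. The WT levels were thus 4.13-fold, 2.52-fold, 5.39-fold and 3.80-fold those of KO cells. The log2 ratios in the authors' deposited tables were -2.05 (q = 0.00146), -1.33 (q = 0.00799), -2.43 (q = 0.0218) and -1.93 (q = 0.00665), all called lower. JAG2 is a weakly expressed gene, and 5 of its 8 group values reached 1 FPKM. A transcript that overlaps it on the same strand was listed at 0 in WT and 0.906 in KO cells in control, at 0 and 0.171 under doxorubicin, at 0.258 and 0 under tunicamycin and at 0 in both under cisplatin. In control KO cells it thus stood above JAG2, and how fragments were divided between them is uncertain.

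JAG1 (chromosome 20, 10637684 to 10673999, minus strand) differed in opposite directions. It was the most abundant of 8 listed ligands in the control, cisplatin and tunicamycin groups. Under doxorubicin DNER, a non-canonical ligand, stood above it at 4.45 FPKM in WT and 5.34 in KO cells. DLK2 (2.73) and DLL1 (1.91) also stood above it there in KO cells. JAG1 was called higher in KO cells in control (9.25 to 12.6 FPKM, log2 ratio 0.44, q = 0.000777) and under tunicamycin (17.4 to 20.7, 0.25, q = 0.000173) in the authors' deposited tables. It was called lower under cisplatin (11.7 to 9.43, -0.31, q = 0.000167) and doxorubicin (3.20 to 1.62, -0.98, q = 0.000186). Only the doxorubicin difference exceeded 1.5-fold.

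DLL1, a Delta-like ligand, pointed the other way from JAG2. It was 0.895 to 1.82 FPKM in control, where it was not called (q = 0.386), and was called higher under cisplatin (0.674 to 1.74, log2 ratio 1.37, q = 0.00213) and doxorubicin (1.24 to 1.91, 0.63, q = 0.0419) in the authors' deposited tables. Under tunicamycin it was 0.401 to 0.399 and was not tested. The doxorubicin call did not pass a q of 0.01. DLL1 (chromosome 6, 170282206 to 170306565, minus strand) overlaps FAM120B on the plus strand, and no source used here says whether counting used strand. FAM120B stood at 7.86 to 5.38 FPKM under cisplatin, where it was called lower, as it was at 9.38 to 6.80 under tunicamycin, and at 3.01 to 3.55 under doxorubicin, where it was not called.

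**Figure D2:**
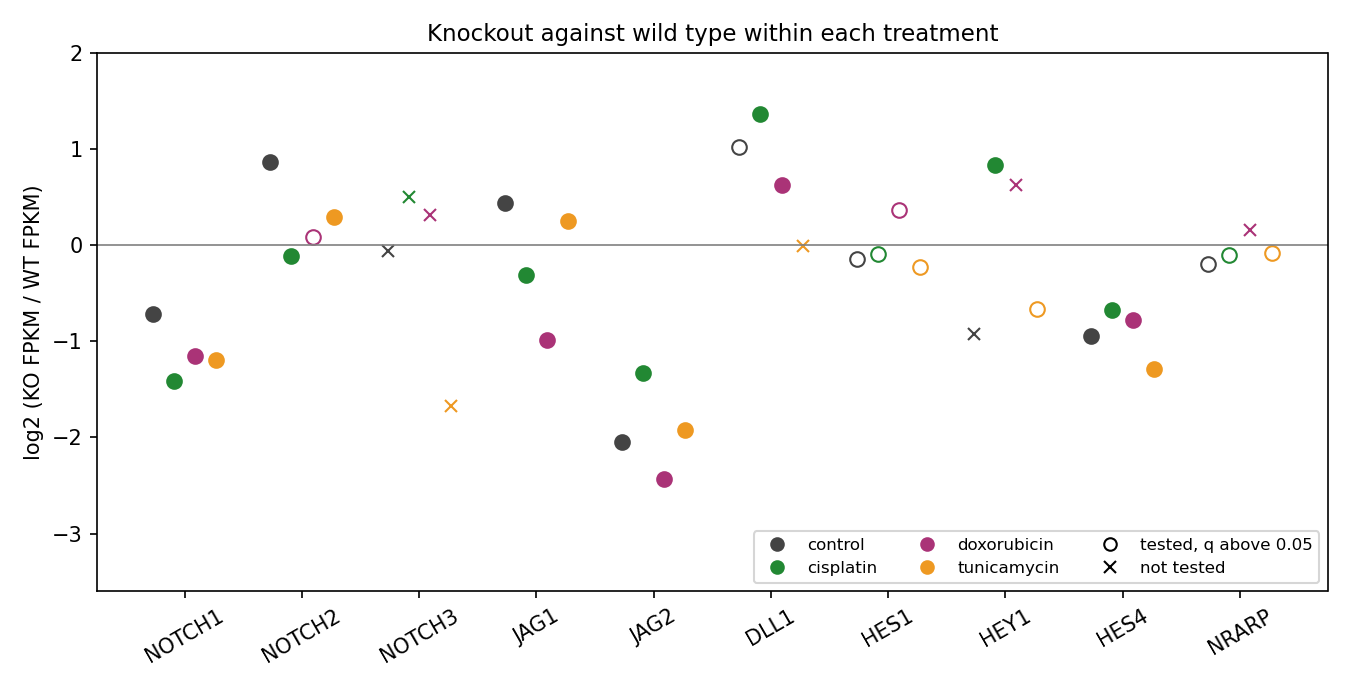
Log2 ratio of KO over WT FPKM for the 10 genes, coloured by treatment, with filled points called at q of at most 0.05, open points tested but not called, and crosses not tested. All 4 points of NOTCH1, JAG2 and HES4 are filled and below 0, NOTCH2 and JAG1 have filled points on both sides of 0, and HES1 and NRARP have none.

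Of the target genes, HES4 and HES1 both encode basic helix-loop-helix repressors, and both carry the RBPJ core in the DNA just before their RefSeq start. The 150 bases before the RefSeq start (GRCh38.p14) are shown because these members share a motif and differ in their response to genotype. Capitals mark each match to TGGGAA, searched on both strands. The HES1 stretch is chr3:194135998-194136147 on the plus strand and the HES4 stretch is chr1:1000098-1000247 on the minus strand, both written 5′ to 3′ toward the start. The GENCODE model of HES4 begins further upstream, at 1000172, so that part of the HES4 stretch lies inside that model and its match lies across that start.
HES1: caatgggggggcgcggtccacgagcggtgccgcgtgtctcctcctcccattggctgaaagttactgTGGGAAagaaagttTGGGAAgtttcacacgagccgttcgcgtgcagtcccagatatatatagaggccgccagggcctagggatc
HES4: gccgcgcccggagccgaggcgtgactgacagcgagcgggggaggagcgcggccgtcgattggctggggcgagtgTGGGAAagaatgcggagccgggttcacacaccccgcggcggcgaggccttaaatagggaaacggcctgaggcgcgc
HES1 has 2 matches, which begin 84 and 70 bases before the start, and HES4 has 1, which begins 76 bases before it. The longest stretch that both share is 12 bases, tgtgggaaagaa, and it holds the upstream match of HES1 and the match of HES4.

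Promoter windows from 250 bases before to 50 after the start were held by the RefSeq table for 8 of the 10 genes, all but DLL1 and HEY1. TGGGAA or its reverse complement was found in 2 of these 8, and in 24.0% of 35116 windows of all genes. The longer form GTGGGAA, which overlaps the core, was found in the same 2 and in 6.25% of all windows. CACGTG, the E-box that BMAL1 and CLOCK are known to bind and that reads the same on both strands, was found in 0 of the 8 and in 7.26% of all windows. The 8 windows held 59% to 79.7% G and C, beside a median of 58.7% over all windows. These matches describe letters in 1 window and not binding.

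HES4 (chromosome 1, 998962 to 1000172, minus strand) was called lower in KO cells in all 4 of the authors' deposited tables. It went from 14.8 to 7.72 FPKM in control (log2 ratio -0.94, q = 0.000213) and from 30.4 to 19.0 under cisplatin (-0.68, q = 0.000167). Under doxorubicin it went from 23.3 to 13.6 (-0.78, q = 0.000186) and under tunicamycin from 9.58 to 3.93 (-1.28, q = 0.000173). Its KO values were below those of WT within each table, although the KO value under cisplatin exceeded the WT value in control.

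HES1 (chromosome 3, 194136145 to 194138732, plus strand), the target most often read as a sign of Notch activity, was called in 0 of 4 tables. It was 14.9 to 13.4 FPKM in control (log2 ratio -0.15, q = 0.397), 16.9 to 15.9 under cisplatin (-0.088, q = 0.553), 3.95 to 5.11 under doxorubicin (0.37, q = 0.0682) and 4.81 to 4.11 under tunicamycin (-0.23, q = 0.188) in the authors' deposited tables. The unadjusted p under doxorubicin was 0.0325 and the other 3 were 0.116 or more. Without an error per gene these values do not show that HES1 was alike in both genotypes.

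NRARP, a small ankyrin-repeat protein that feeds back on the Notch complex, was tested in 3 tables and called in 0. It was 2.35 to 2.05 FPKM in control (q = 0.577), 4.08 to 3.80 under cisplatin (q = 0.629) and 1.05 to 0.996 under tunicamycin (q = 0.843) in the authors' deposited tables, with unadjusted p-values of 0.467 or more. Under doxorubicin it was 0.340 to 0.381 and was not tested. HEY1, a repressor of the HEY family, was called once, higher under cisplatin (1.28 to 2.28 FPKM, log2 ratio 0.84, q = 0.00315). It was not called under tunicamycin (1.14 to 0.718, q = 0.201), and it was not tested in control (0.467 to 0.247) or doxorubicin (0.249 to 0.384).

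A larger share of the tested members than of all tested genes was called in each table. These shares rest on 7 to 9 genes, chosen with earlier results of these data known, and were not tested. In control 5 of 8 tested members were called, 2 higher and 3 lower, beside 43.8% of all 12978 tested genes (22.7% higher and 21.1% lower). In cisplatin 7 of 9 were called, 2 higher and 5 lower, beside 49.6% of 14253 (25.4% and 24.2%). In doxorubicin 5 of 7 were called, 1 higher and 4 lower, beside 45.1% of 11856 (24.4% and 20.7%), and under tunicamycin 5 of 8 were called, 2 higher and 3 lower, beside 49.3% of 13896 (27.2% and 22.1%). The median log2 ratio of the tested members was -0.17, -0.11, -0.78 and -0.45 in the same order, beside 0.0070, 0.020, 0.042 and 0.035 over all tested genes. Members that were not tested had levels under 1 FPKM in both groups of their table. Of 6 members tested in all 4 tables, 3 were called lower in each (NOTCH1, JAG2 and HES4) and 0 higher in each, beside 8.66% and 9.0% of 10881 genes. NOTCH2 and JAG1 were called in opposite directions in different tables, as were 12.9% of those genes. With so few members, these shares describe the genes named and set the pathway apart from no other group.

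The ratio of 2 members inside 1 group does not depend on how a table was scaled, so it can be read across treatments. This measure was chosen after the levels were seen, and it carries no test. NOTCH1 over NOTCH2 was 0.405 in WT and 0.135 in KO cells in control, 0.695 and 0.282 under cisplatin, 0.536 and 0.227 under doxorubicin, and 0.385 and 0.137 under tunicamycin. The KO ratio was thus 0.333 to 0.423 times the WT ratio, and the lowest WT ratio lay above the highest KO ratio.

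JAG2 over JAG1 was 0.372 in WT and 0.0662 in KO cells in control, 0.387 and 0.190 under cisplatin, and 0.379 and 0.139 under doxorubicin. Under tunicamycin it was 0.0576 and 0.0127, so that both genotypes had the smallest ratio there. HES4 over HES1 was 0.997 and 0.574 in control, 1.80 and 1.20 under cisplatin, 5.90 and 2.66 under doxorubicin, and 1.99 and 0.958 under tunicamycin. HES4 was therefore the more abundant of both target transcripts in WT cells under each drug, whereas in KO cells HES1 exceeded it in control and slightly under tunicamycin.

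**Figure D3:**
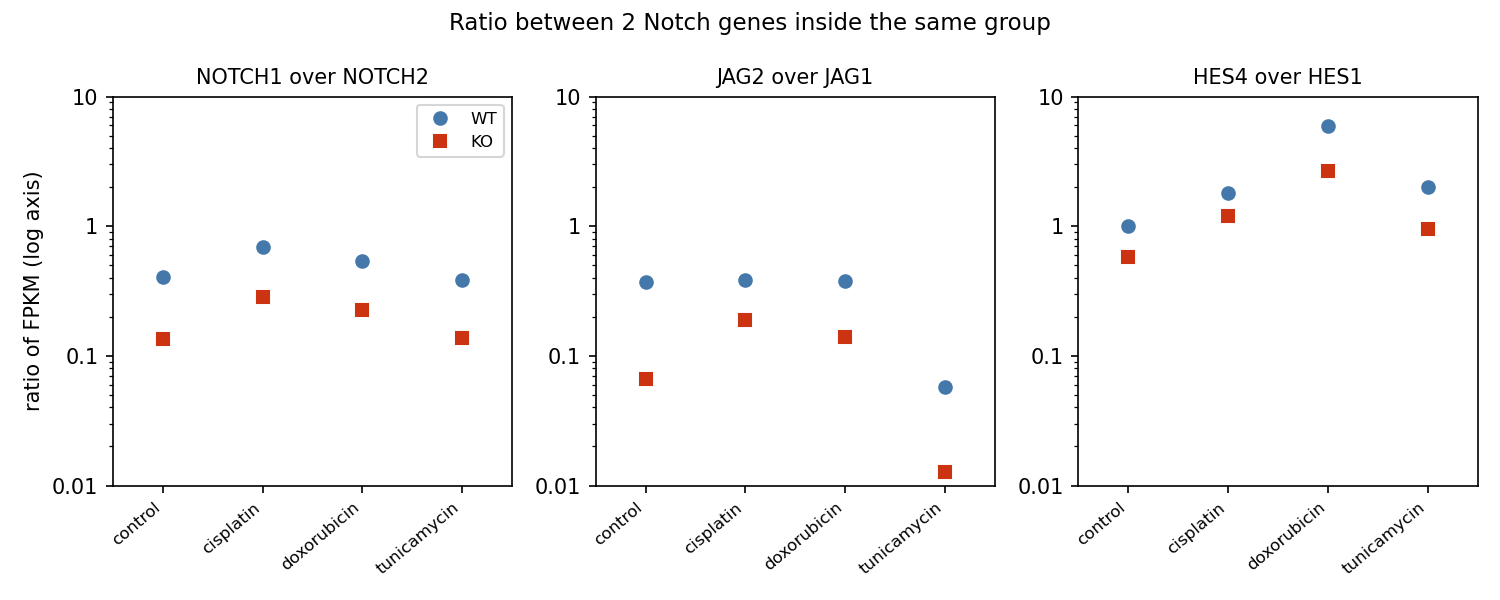
Ratio of FPKM between 2 Notch genes inside the same group, on a log axis, under the 4 treatments, with blue circles for WT and red squares for KO. In each of the 3 panels the KO ratio is below the WT ratio under every treatment, and HES4 over HES1 is highest under doxorubicin (5.90 in WT and 2.66 in KO). The numerators are the members called lower in KO cells under all 4 treatments, so lower KO ratios follow in large part from that choice.

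How the KO to WT difference of a gene compared between a drug and control is given as the drug log2 ratio minus the control log2 ratio, for members at 1 FPKM or more in a group of both tables. No error per gene is given, so these differences were not tested, and the 3 drugs share the control table. Of 22 such values 8 were at least 0.5 in size. The share of all genes at that size was not counted, so this count does not set the members apart from other genes. For JAG1 the difference was -0.75 under cisplatin, -1.43 under doxorubicin and -0.19 under tunicamycin, and for NOTCH2 it was -0.98, -0.78 and -0.58. For NOTCH1 it was -0.70, -0.44 and -0.48. JAG2 had the largest positive value, 0.71 under cisplatin, beside -0.38 under doxorubicin and 0.12 under tunicamycin. Over all genes of this level the middle 90% of differences ran from -1.19 to 0.88 under cisplatin, -1.16 to 0.90 under doxorubicin and -0.86 to 0.76 under tunicamycin, and JAG1 under doxorubicin was the only member outside it. HES1 differed from control by 0.059, 0.52 and -0.081, and HES4 by 0.27, 0.16 and -0.34.

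The levels under each drug were set beside those of control cells of the same genotype as the log2 of (FPKM drug + 1) over (FPKM control + 1), a scale that understates the change of low genes. The tables were normalized separately and the responses share their control values, so they are values without a test. Over genes of 5 FPKM or more in either group the median response was 0.12 in WT and 0.15 in KO cells for cisplatin, -0.72 and -0.75 for doxorubicin, and -0.11 and -0.075 for tunicamycin.

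Under cisplatin the targets had higher levels than in control cells of both genotypes. The response of HES4 was 0.99 in WT and 1.20 in KO cells, that of NRARP 0.60 and 0.65, and that of HEY1 0.63 and 1.39. HES1, at 0.17 and 0.22, lay close to the medians of all genes (0.12 and 0.15). NOTCH1 had a response of 0.77 in WT (4.62 to 8.60 FPKM) and 0.15 in KO cells (2.82 to 3.23). NOTCH2 had 0.11 in WT and -0.81 in KO cells, and JAG1 had 0.31 and -0.38. These 3 genes thus had a lower value in KO than in WT cells. JAG2 (0.31 in WT and 0.61 in KO), DLL1 (-0.18 and -0.043) and NOTCH3 (-0.082 and 0.092) had a higher one, as did the targets. Receptors and ligands therefore did not differ from the targets as a set.

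Under doxorubicin, 43.4% of genes in WT and 44.7% in KO cells of at least 5 FPKM were 2-fold or more lower than in control, as were 5 and 4 of the 10 members at any level. JAG1 had a response of -1.29 in WT and -2.37 in KO cells, and NOTCH2 of -1.15 and -1.89. HES1 (-1.68 and -1.24) and NRARP (-1.32 and -1.14) lay below the median of all genes in both genotypes. HES4 lay on the other side, at 0.62 and 0.74, so that its level was 1.57-fold and 1.76-fold that of control cells.

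Under tunicamycin HES1 and JAG1 parted. HES1 had a response of -1.45 in WT (14.9 to 4.81 FPKM) and -1.50 in KO cells (13.4 to 4.11). JAG1 had 0.84 (9.25 to 17.4) and 0.68 (12.6 to 20.7). JAG2 had -1.15 and -0.54, NRARP -0.71 and -0.61, HES4 -0.58 and -0.82, and NOTCH1 0.30 and -0.090. Both genotypes thus held JAG1 above, and HES1 below, their control level.

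**Figure D4:**
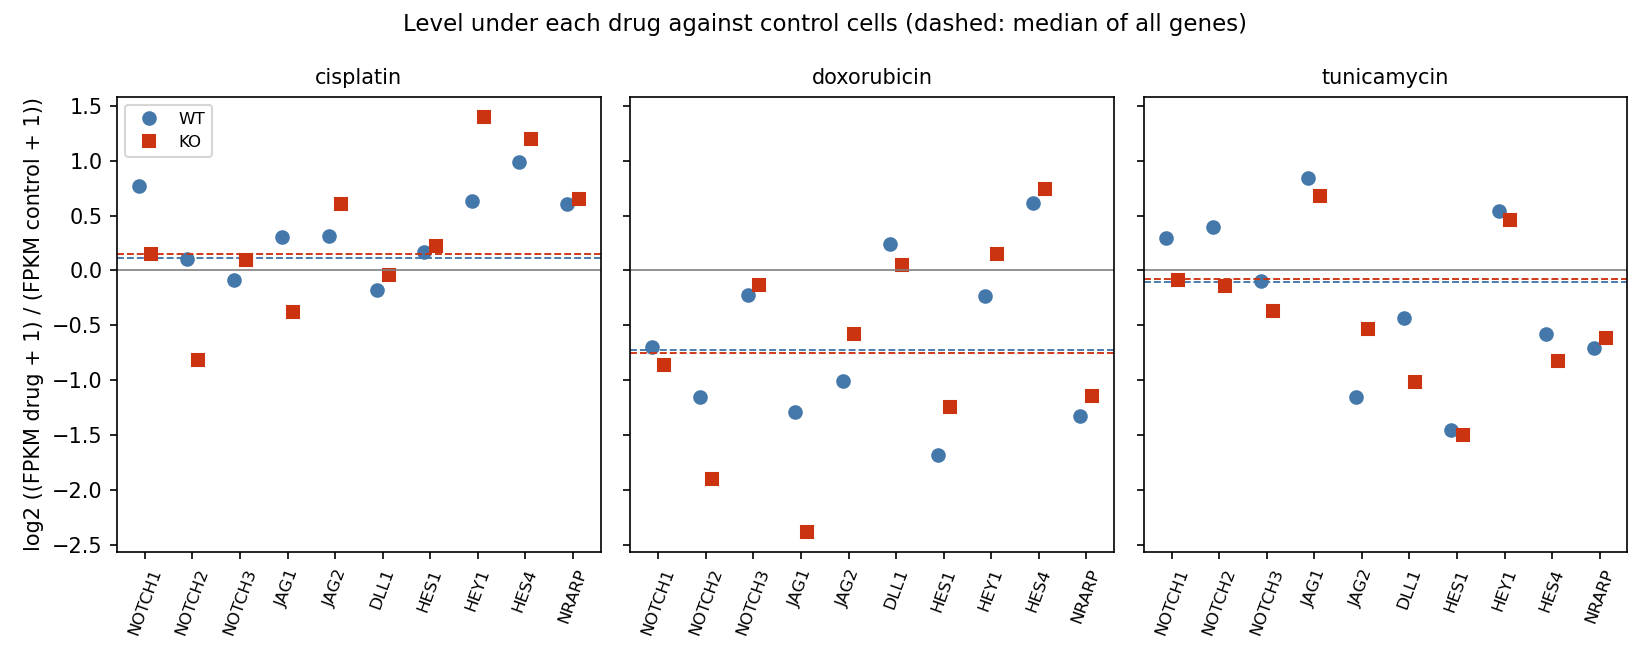
Response of the 10 genes to each drug, as log2 of FPKM + 1 under drug over that in control cells, with blue circles for WT, red squares for KO and dashed lines for the median of all genes of 5 FPKM or more. HES4 lies above 0 under doxorubicin (0.62 and 0.74) where the medians are -0.72 and -0.75, and HES1 lies near -1.5 in both genotypes under tunicamycin.

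Levels ordered per length differed between conditions. In control WT cells the order was HES1 (14.9 FPKM), HES4 (14.8), NOTCH2 (11.4) and JAG1 (9.25), and in control KO cells it was NOTCH2 (20.9), HES1 (13.4), JAG1 (12.6) and HES4 (7.72). HES4 was the highest member under cisplatin and doxorubicin in both genotypes, and JAG1 under tunicamycin. No spread is known, so neighbours in these orders, such as HES1 and HES4 in control WT cells, cannot be separated.

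Genes near each other on a chromosome differed together in places, so each member was set beside the tested genes within 5 Mb of it. Around NOTCH1 the median log2 ratio of KO over WT was -0.24 in control (86 genes), -0.53 under cisplatin (94), -0.34 under doxorubicin (81) and -0.45 under tunicamycin (93). NOTCH1 itself lay a further 0.47 to 0.89 below these medians. NRARP (chromosome 9, 137300482 to 137302251, minus strand) lies in the same stretch, with neighbour medians of -0.24, -0.53, -0.31 and -0.45, and its own ratios of -0.20, -0.10, 0.16 and -0.077 lay above them. Around DLL1 the medians were -0.59, -0.66, -0.40 and -0.47, against the direction of its calls. The neighbours of JAG2 (0.065, -0.11, 0.14 and 0.047) and of HES4 (0.32, -0.086, 0.12 and -0.0097) showed no lower level of the size seen in these genes. Around NOTCH2 under cisplatin the median of -0.13 was about that of NOTCH2 itself (-0.11). The part of position in the member ratios was not tested.

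**Figure D5:**
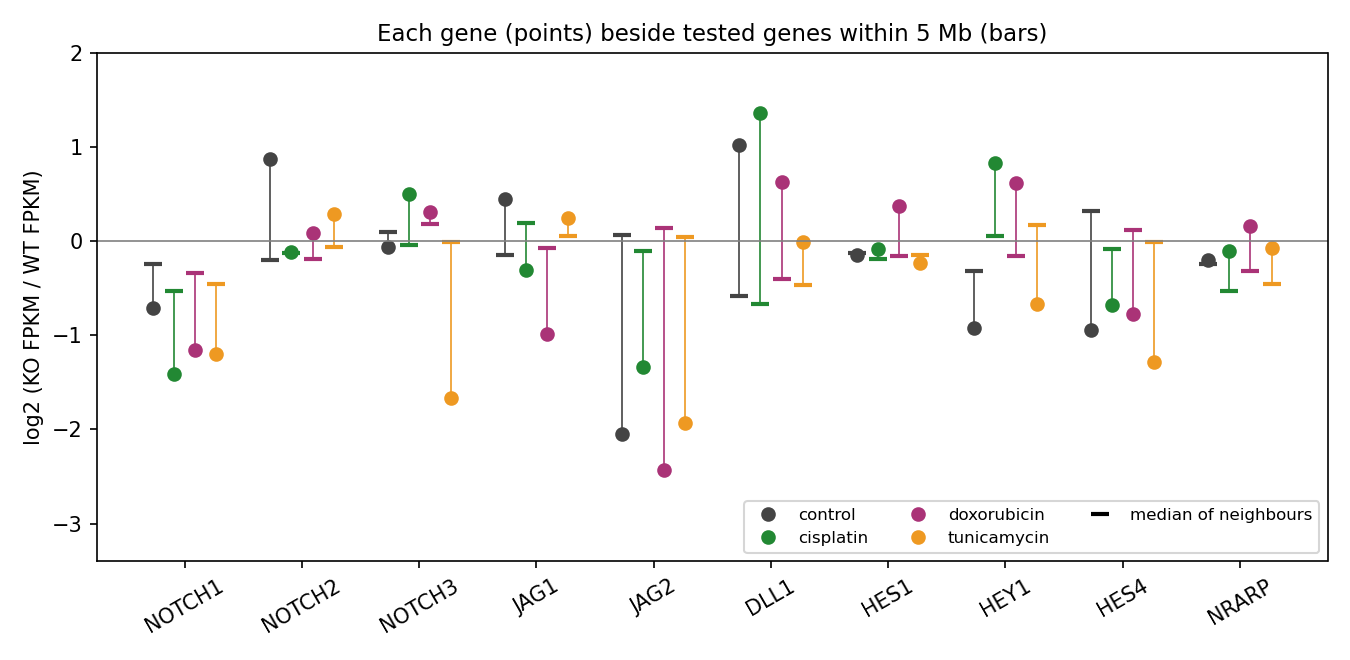
Log2 ratio of KO over WT FPKM for each gene (points) and the median of tested genes within 5 Mb of it (bars), coloured by treatment and joined by lines. NOTCH1 lies below its neighbours, whose medians are -0.24 to -0.53, and JAG2 and HES4 lie below neighbours whose medians are between -0.11 and 0.32.

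The pathway was also described by 7 lists, whose calls stand beside the shares of all genes given above. The lists of receptors, ligands and HES and HEY genes hold the members too, so the calls of members are counted there again. In the wider family of HES and HEY genes and targets, 0 genes were called higher and 3 lower of 9 tested in control, 3 and 6 of 13 under cisplatin, 2 and 3 of 7 under doxorubicin and 0 and 5 of 11 under tunicamycin. HES2, a repressor of the same family, passed as lower in all 4 tables, with values of 3.89 to 0.735 FPKM in control, 6.18 to 2.37 under cisplatin, 3.49 to 1.13 under doxorubicin and 3.22 to 0.752 under tunicamycin. CCND1, the gene of cyclin D1, was called lower in all 4 as well, at 211 to 177 in control, 222 to 126 under cisplatin, 374 to 127 under doxorubicin and 182 to 117 under tunicamycin. The genes called higher, named after their values were seen, were HES6, HEY1 and HEY2 under cisplatin and HES6 and MYC under doxorubicin. MYC was called lower under cisplatin (59.5 to 50.3 FPKM) and tunicamycin (111 to 88.0). HEYL was called lower under both of these drugs too, and BHLHE40 under cisplatin. The list medians of the log2 ratio were -0.20, -0.24, 0.37 and -0.48.

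Of 4 receptors 1 was called higher and 1 lower of 2 tested in control, 0 and 2 of 3 under cisplatin, 0 and 1 of 2 under doxorubicin, and 1 and 1 of 2 under tunicamycin, with medians of 0.078, -0.22, -0.53 and -0.45. Every call in this list was of NOTCH1 or NOTCH2, as described above. NOTCH4, the receptor outside the members, stayed at 0.643 FPKM or less and was not called. Of 8 ligands 1 was called higher and 1 lower of 5 tested in control, 1 and 3 of 6 under cisplatin, 1 and 2 of 5 under doxorubicin, and 1 and 2 of 4 under tunicamycin, with medians of 0.14, -0.22, 0.24 and -0.30. Outside the members, the only ligands called were DNER, lower under cisplatin, and DLK2, lower under tunicamycin. DLL3 and DLK1 were at 0.0998 FPKM or less in every group.

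Receptor cleavage is carried out by the convertase FURIN, the ADAM proteases and the gamma-secretase complex. Of these 9 genes 2 were called higher and 1 lower in control, 2 and 3 under cisplatin, 4 and 2 under doxorubicin and 2 and 1 under tunicamycin, with medians of 0.11, -0.039, 0.16 and 0.11. APH1A, a gamma-secretase subunit, was called higher in all 4 tables by small amounts, at 73.0 to 87.3 FPKM in control and 79.8 to 87.3 under cisplatin. FURIN was called lower in all 4, at 15.2 to 12.3 in control, 25.2 to 12.0 under cisplatin, 17.4 to 14.0 under doxorubicin and 14.2 to 10.1 under tunicamycin.

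Of 9 tested genes of Notch glycosylation, 3 were called higher and 2 lower in control, 2 and 3 under cisplatin, 1 and 3 under doxorubicin and 3 and 2 under tunicamycin, with medians of 0.16, -0.17, 0.18 and 0.23. B4GALT1, a galactosyltransferase, was called lower in all 4, from 32.2 to 25.2 FPKM in control to 23.2 to 15.8 under doxorubicin. LFNG, the Lunatic Fringe enzyme that alters which ligands a receptor answers to, was called lower in 3 (6.97 to 4.66 in control, 6.73 to 3.32 under cisplatin and 1.16 to 0.548 under doxorubicin) and was named after its values were seen.

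In the RBPJ complex and its cofactors, 7 genes were called higher and 3 lower of 19 tested in control, 6 and 8 of 18 under cisplatin, 6 and 3 of 18 under doxorubicin and 6 and 3 of 20 under tunicamycin, with medians of 0.28, -0.023, 0.24 and 0.11. TLE1, a corepressor that HES proteins recruit, passed as lower in all 4 tables, with values of 23.3 to 16.9 FPKM in control, 21.4 to 13.9 under cisplatin, 2.93 to 1.81 under doxorubicin and 17.7 to 12.4 under tunicamycin. RBPJ itself, named after its values were seen, was called higher both in control (23.4 to 31.7) and under tunicamycin (24.3 to 40.2), and was not called under cisplatin (17.6 to 18.8) or doxorubicin (8.23 to 10.4).

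Among genes of Notch trafficking and turnover, 7 were called higher and 1 lower of 14 tested in control, 3 and 4 of 14 under cisplatin, 1 and 2 of 11 under doxorubicin and 4 and 3 of 14 under tunicamycin, with medians of 0.32, -0.027, -0.23 and 0.060. NEURL1B, a ubiquitin ligase that acts on ligands, was called lower in control (4.93 to 2.26 FPKM), cisplatin (5.12 to 1.95) and tunicamycin (2.68 to 0.869), and was 0.135 to 0.138 and not tested under doxorubicin. DTX3L, a ubiquitin ligase of the Deltex family, was called higher in the same 3 tables (3.51 to 6.38, 5.52 to 9.60 and 2.63 to 6.07).

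Genes whose levels ran most like a member were taken by Pearson's r of log2(FPKM + 1) over the 8 group values, among 8117 genes. For NOTCH1 they were PRDM11 (r = 0.979), FAM21A (0.973) and PBXIP1 (0.973), for JAG1 they were TBL2 (0.993), SGMS2 (0.990) and DBF4B (0.989), and for HES1 they were KIAA2013 (0.983), LUC7L3 (0.976) and GINS2 (0.975). The 8 values share cell line, 2 genotypes and the scaling of each table, and r describes these groups only.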

How the data were processed

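RNA-seq covered 16 samples in 8 groups. The submitters' processing notes name the tools STAR 2.5.3, Trimmomatic 0.35, FastQC 0.11.5, Cuffdiff and Cufflinks and the build hg38; annotation and strandedness were not stated in the labels. Per the file headers, the authors deposited 4 tables in the Cuffdiff layout with FPKM per group, log2 fold change, a test score, and p-values with q-values. The log2 values deposited equal log2 of KO over WT FPKM, and the deposited q-values equal Benjamini-Hochberg adjustment of p over tested genes, both recomputed. WT and KO columns were assigned by their order in the table names, treatments by code, and the control table as the only code that names no drug. No library values were given, so no refit was made and p-values are the authors'.

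Members and lists were chosen with earlier results of these data known. All members were named. From each list were named genes called the same way in all 4 tables. With none, the 2 with the largest median absolute log2 ratio among those called in 2 or more tables were named. Positions came from GENCODE release 29 (GRCh38), which matched 56988 of 60658 genes, and promoters from RefSeq (GRCh38.p14). Alternatives were stricter q or fold, other pseudocounts, centring and neighbour spans. Counting of calls and neighbour medians was tested on simulated data. Python 3.11.15 and pandas 2.3.3 were used.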

Additional observations from a re-analysis of the deposited data

How the results depend on the processing

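Of the 32 tested member ratios, every direction stood after subtracting the median of all tested genes and with FPKM + 1. After subtracting the median of neighbours, 5 changed sign: NRARP to 0.043 in control, 0.42 in cisplatin and 0.38 in tunicamycin, HES1 to 0.11 in cisplatin and NOTCH2, the only called one of them, to 0.017 in cisplatin. At q of at most 0.01 the members called in doxorubicin numbered 3 in place of 5, without JAG2 and DLL1, and calls in the list of trafficking and turnover genes over the 4 tables numbered 15 in place of 25 (this alternative for lists was chosen after seeing the data). With at least 1.5-fold as well, 3 in place of 5 members were called in tunicamycin and 5 in place of 7 in cisplatin, both without NOTCH2 and JAG1, and 4 in place of 5 in control, without JAG1. Of 60 drug responses, 13 were at least 2-fold lower and 2 at least 2-fold higher. Doxorubicin gave 5 (WT) and 4 (KO) of the lower values, and tunicamycin 2 per genotype. The 2 higher values came from KO cells with cisplatin. Among all genes of 5 FPKM or more, the share that low was 43.4% (WT) and 44.7% (KO) with doxorubicin. It was 4.29% and 7.23% with cisplatin, and 2.31% and 2.09% with tunicamycin. The share at least 2-fold higher ranged from 3.62% (WT, doxorubicin) to 6.06% (WT, cisplatin). The counts were not tested against these shares. For the members, a pseudocount of 0.1 gave 7 higher and a pseudocount of 0.01 gave 20 lower and 7 higher. Subtracting the median response of all genes gave 5 lower and 4 higher. Neighbour medians of at least 0.3 in size and 1 sign in all 4 tables surrounded 1 member, DLL1, within 5 Mb. Within 2 Mb they surrounded 2, DLL1 and NRARP. NOTCH1 did not meet this bound, its neighbour median in control being -0.24 within 5 Mb and -0.28 within 2 Mb. No paired analysis was possible because the tables hold 1 value per group and no library, and leaving out a replicate was not run for the same reason. Depth per library is unknown, and members under 1 FPKM were mostly untested.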
